A study of Mus musculus with 2 samples.

Results

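The genes described here encode the proteins of the cytosolic ribosome in the developing mouse lacrimal gland. They were picked by symbol, as all Rpl and Rps genes together with Rplp0, Rplp1, Rplp2 and Rpsa, without pseudogene symbols and Rps6k kinases. This gave 84 of the 27775 features listed. Of these, 77 encode proteins of the standard ribosome of 80 proteins, 46 of the large and 31 of the small subunit, and the other 7 are paralogs: Rpl39l, Rpl22l1, Rps27l, Rpl36al, Rpl7l1, Rpl3l and Rpl10l. Fau and Rack1 (listed as Gnb2l1) belong to the standard set but carry other symbols.

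The P4 library held lacrimal gland cells of wild-type CD1 mice at postnatal day 4, and the E16 library held those of embryonic day 16 from the same strain. Glands of each stage were pooled, digested with Liberase TM and DNaseI and strained before droplet barcoding; how many animals went into a pool is not stated in the labels. The labels name no treatment and no mutation. Each stage was 1 library, so differences between P4 and E16 have no replicate check, a stage cannot be told apart from its library, and all intervals below are 95% intervals that cover counting error only.

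A ribosomal protein gene makes 1 of the many proteins that assemble with ribosomal RNA in the nucleolus, and most of these proteins are needed in every ribosome. Their mRNAs are among the most abundant in dividing and secreting cells, and many begin with a short tract of pyrimidines, the 5′ terminal oligopyrimidine (TOP) motif, through which mTOR signalling controls their translation. Some have paralogs with restricted expression. Rpl39l, an autosomal paralog of the X-linked Rpl39, is best known from the male germ line, Rpl10l from the testis and Rpl3l from striated muscle.

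The starts of the genes on which the results below turn are shown from RefSeq promoters of build GRCm38.p6, 12 bases before and 22 from the annotated start, read along the transcribed strand. Capitals mark an unbroken run of at least 5 letters that are C or T, opening with C, whose first letter lies within 5 bases of that start.
Rpl39: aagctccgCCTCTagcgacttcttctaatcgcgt
Rpl39l: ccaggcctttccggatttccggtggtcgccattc
Rps27: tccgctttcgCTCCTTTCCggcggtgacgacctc
Rps27l: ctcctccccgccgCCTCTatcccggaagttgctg
Rpl22l1: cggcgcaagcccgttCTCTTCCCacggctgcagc
Rpl35a: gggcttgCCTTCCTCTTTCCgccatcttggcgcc
Rpl6: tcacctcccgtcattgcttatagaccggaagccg

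These windows lie at chrX:37085201-37085234 on the minus strand for Rpl39, chr16:10170216-10170249 on the plus strand for Rpl39l, chr3:90213627-90213660 on the minus strand for Rps27 and chr9:66946074-66946107 on the plus strand for Rps27l. The window of Rpl22l1 lies at chr3:28805496-28805529, that of Rpl35a at chr16:33056470-33056503 and that of Rpl6 at chr5:121204489-121204522, all on the plus strand. For Rps27l the first of 2 listed promoters is shown and for Rpl35a the second of 3; the others hold no such run. A promoter was listed for 64 members. Among the 57 standard members matched, 27 (47.4%) held the run, as did 2 of the 7 paralogs (28.6%) and 5718 of all 27025 genes (21.2%). The run is a match of letters and does not show that a transcript starts there.

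Barcodes with at least 200 detected genes were kept, 406 of 687 from P4 and 259 of 437 from E16, and held 1975814 UMIs in P4 and 1711606 in E16 (unique molecular identifiers, each counting 1 captured molecule). The kept cells had a median of 3767 UMIs in P4 and 5802 in E16, and the libraries shared 0 barcodes. Clustering with the ribosomal protein genes left out gave 18 clusters in 9 classes named from marker genes. The classes come from this re-clustering, not from an annotation by the authors. The epithelial-like class held clusters led by Mia and Krt14 (cluster 1), by Wfdc18, Krt18 and Bpifa2 (cluster 5), by Epcam and Perp (cluster 9, E16 cells alone) and by Dcpp3, Dcpp2 and Smgc (cluster 10, P4 cells alone). In cluster 10, 7 of the 15 listed epithelial markers were detected, none of them among its leading genes. Mesenchyme-like cells of P4 were mostly in clusters 0, 4 and 6, and those of E16 mostly in cluster 2.

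Ribosomal protein transcripts made up 14.1% of all UMIs in P4 and 15.4% in E16, and the share depended on the class far more than on the stage. It was highest in T or innate lymphoid-like cells, at 24.7% of UMIs (24.2 to 25.1%, 21 cells, P4 alone), and in epithelial-like cells, and lowest in erythroid-like cells. In erythroid-like cells, a cluster led by haemoglobin genes, the share was 0.840% in P4 (12 cells) and 0.598% in E16 (25 cells). The remaining classes lay close together: 13.8% in P4 and 15.1% in E16 for endothelial-like cells, 12.4% in P4 and 13.6% in E16 for mural-like cells, and 12.4% in P4 and 13.6% in E16 for glial-like cells. Mast-like cells, with 4 cells in P4 and 9 in E16, stood at 11.6% in P4 and 16.4% in E16.

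**Figure D1:**
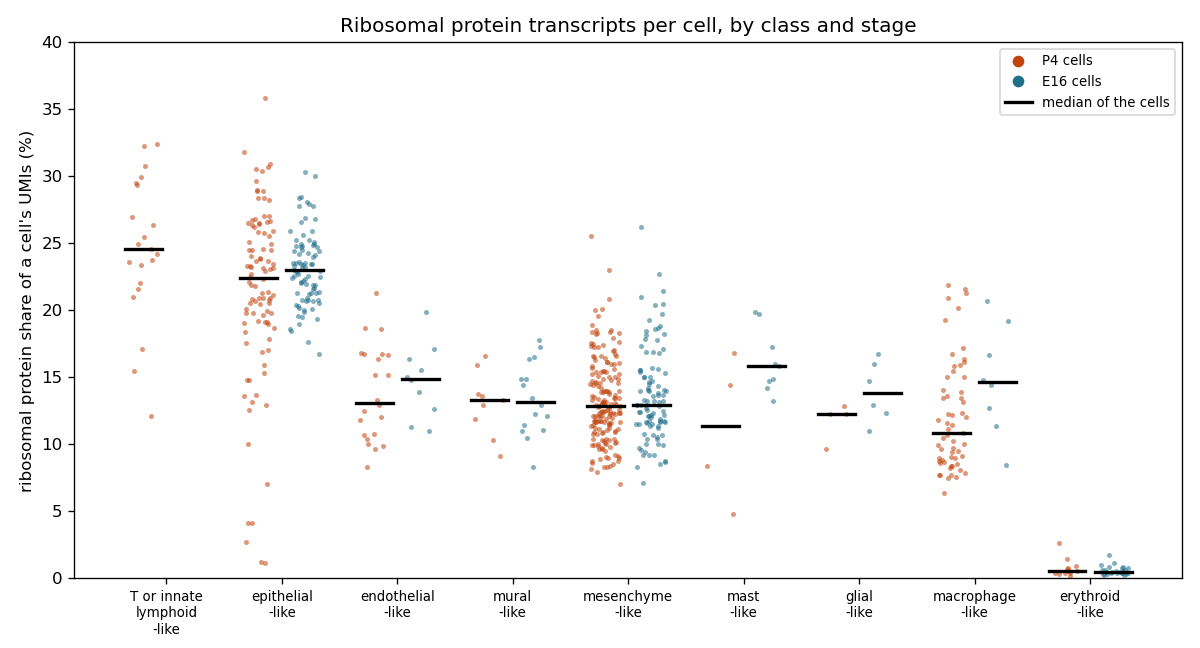
Each point is 1 cell, placed by the share of its UMIs that fall on ribosomal protein genes (y axis, percent), with P4 left of E16 within each class and a black bar at the median of the cells. T or innate lymphoid-like and epithelial-like cells have medians above 20%, erythroid-like cells below 1%, and a few P4 epithelial-like cells lie below 10%.

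Mesenchyme-like cells, the largest class, gave 13.05% of UMIs in P4 (12.98 to 13.12%, 177 cells) and 13.54% in E16 (13.46 to 13.62%, 99 cells). Their median cell stood at 12.90% in P4 and 12.97% in E16, and the ranges of the cells overlapped over almost their whole width. Among P4 macrophage-like cells the clusters differed from each other more than the stages of most classes did. Cluster 3, led by complement C1q genes, had a median of 9.72% over 47 cells, and cluster 13, led by Lyz2, Ctss and Cd74, had 18.3% over 12 cells. The lowest cell of cluster 13 stood at 15.06% and the highest of cluster 3 at 15.94%, so the clusters barely overlapped. Median depth was 2887 UMIs in cluster 3 and 3349.5 in cluster 13.

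In the epithelial-like class the share of summed UMIs was 16.6% in P4 (16.5 to 16.6%, 98 cells) and 21.9% in E16 (21.81 to 22.02%, 86 cells). The cells themselves differed less: the median was 22.4% in P4, with quartiles of 19.1 and 25.9%, and 23.0% in E16, with quartiles of 21.2 and 24.8%. P4 cells spread from 1.15 to 35.8% and E16 cells from 16.8 to 30.4%. The low end in P4 was a small set of secretory cells. In 6 P4 cells, transcripts of Dcpp1, Dcpp2 and Dcpp3, which encode secreted gland proteins, made up at least 10% of UMIs, and these cells held 27.3% of all P4 epithelial-like UMIs. Their ribosomal protein share ranged from 1.15 to 7.06%, with a median of 3.40%, and the median was 16.1% when Dcpp UMIs were taken out of the total. The other 92 P4 cells ranged from 10.1 to 35.8%, with a median of 23.0%.

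By cluster, the share was 23.9% of UMIs in both stages in cluster 1, with 35 P4 and 47 E16 cells. It was 21.9% in P4 (35 cells) and 19.3% in E16 (8 cells) in cluster 5. Cluster 10, all from P4, had 7.77% of summed UMIs but a median cell of 20.8%, and cluster 9, all from E16, had 21.5%. Over the clusters with cells of both stages, the epithelial share was 22.2% in P4 and 22.8% in E16. Taking 33 abundant other genes out of the totals, Dcpp1 to Dcpp3, Smgc and Bpifa2 among them, turned the direction, at 22.9% in P4 and 22.7% in E16.

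**Figure D2:**
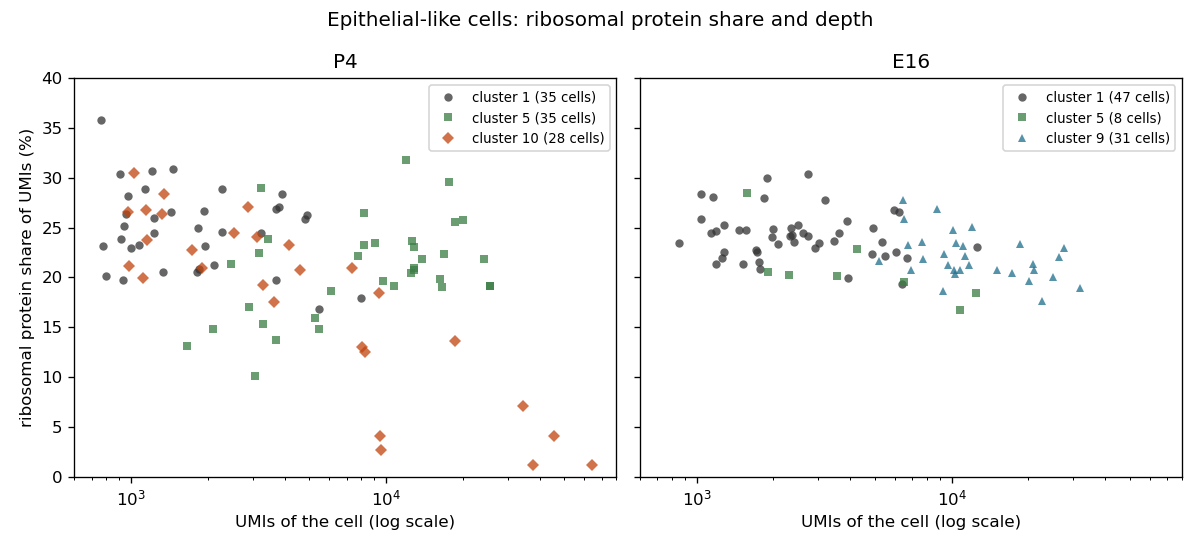
Ribosomal protein share of each epithelial-like cell (y axis, percent) against its total UMIs (x axis, log scale), for P4 on the left and E16 on the right, with symbols for clusters. In P4 the 6 cells below 8% all belong to cluster 10, while in E16 no cell is below 16%.

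Pooled over the epithelial-like class, deeper cells had lower shares in both libraries, with Spearman's rho of -0.44 over 98 cells in P4 and -0.46 over 86 cells in E16. The clusters differed from each other in depth and share, and the relation did not have the same sign inside each of them. In P4 the rho was -0.84 in cluster 10 (28 cells), which holds the 6 Dcpp-rich cells, and -0.13 in cluster 1 (35 cells), but 0.37 in cluster 5 (35 cells), where deeper cells had higher shares. In E16 it was -0.13 in cluster 1 (47 cells) and -0.43 in cluster 9 (31 cells). Pooled values in the other classes were -0.20 in mesenchyme-like cells of each stage and 0.37 in 59 macrophage-like cells of P4. These values describe the cells of 1 library each, and the UMI total is also the denominator of the share.

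The balance between the subunits varied little among the larger classes and was lowest in erythroid-like cells. Small-subunit genes gave 42.1% of ribosomal protein UMIs in P4 epithelial-like cells (41.8 to 42.4%) and 44.3% in E16 ones (44.1 to 44.6%). In mesenchyme-like cells they gave 43.4% in P4 and 43.9% in E16, in macrophage-like cells 46.4% in P4 and 46.0% in E16, and in T or innate lymphoid-like cells of P4 46.4%. In erythroid-like cells they gave 37.5% in P4 (33.6 to 41.6%) and 31.1% in E16 (28.3 to 34.0%). These erythroid-like values rest on few UMIs, and a single large-subunit gene weighed heavily in them. Rpl41 held 78 of 581 ribosomal protein UMIs in P4 (13.4%) and 225 of 1047 in E16 (21.5%), beside 4.15% over all kept cells. Glial-like cells had 39.6% in P4 (37.7 to 41.6%, 4 cells) and 43.3% in E16 (6 cells).

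All 77 standard members were detected in both libraries, and 76 had at least 100 UMIs over both, with a median of 6263. The 6 most abundant together made up 20.0% of ribosomal protein UMIs. Rpl41, which encodes a very short basic peptide of the large subunit, led with 11046 UMIs in P4 and 11451 in E16. Rpl13 followed with 11025 in P4 and 8480 in E16, then Rps2, which lies near the mRNA entry channel, with 8932 in P4 and 8840 in E16. Rps19, a gene mutated in human Diamond-Blackfan anaemia, had 9179 in P4 and 8276 in E16. Rplp0, the base of the stalk that binds translation factors, had 8281 in P4 and 6882 in E16.

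At the other end stood Rpl29 with 9 UMIs in P4 and 6 in E16, and Rpl26 with 72 in P4 and 68 in E16. Rpl39 had 558 in P4 and 867 in E16, Rpl27a 574 in P4 and 855 in E16, Rps21 686 in P4 and 922 in E16, and Rpl15 958 in P4 and 719 in E16. Reads of ribosomal protein genes can match processed pseudogenes, and counting that drops reads with several matches would lower such genes. In Rpl29, 51.8% of the 50-base windows in the last 300 bases of the transcript also occurred in other annotated genes, 41 of them, and in Rpl26 64.5%. The 6 lowest genes had a median of 28.7% of such windows, below the 56.6% of the other 71, and Rps27, with 7725 UMIs, had 100%. The windows came from a single annotated transcript of each gene, 1922 bases long for Rpl15 and 5179 for Rps15a, both with 0% shared. Whether the counted molecules end there was not tested, nor was the part of shared sequence in these levels.

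Between stages, no epithelial-like member was at least 1.5-fold higher in P4 than in E16, where 12% of all 4966 features tested were. Of the 80 members with at least 30 UMIs, 36 passed 1.5-fold downward in P4, where 47.2% of all features did, so the share of members was close to the background. The median member had a log2 ratio of -0.52 and the median feature -0.53. Summed over members, the P4 level was 0.755 times the E16 level (0.749 to 0.761).

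Members differed among themselves around that total. Less abundant members had lower ratios on the whole, with Spearman's rho of 0.50 for the E16 level, which is also the denominator of the ratio. For annotated transcript length the rho was 0.22, both across 79 genes of the same libraries. The 26 shortest members (median 522 bases) had a median log2 ratio of -0.75. The 26 longest (median 1354.5 bases) had -0.52, the same as all members tested. Lengths are those of a single annotated transcript per gene, 5179 bases for Rps15a, and may differ from those of the counted molecules. Rpl6, a large-subunit protein, had the highest ratio, with 1837 UMIs in P4 and 1141 in E16, a level of 2494 CPM (counts per 1000000 UMIs of the class) in P4 and 1862 CPM in E16, a ratio of 1.34 (1.24 to 1.44). Rpl15, with 463 UMIs in P4 and 333 in E16, had a ratio of 1.156 (1.002 to 1.335). Among those that followed, Rpl14 stood at 1.06, Rpl13 at 1.04 and Rpl13a at 0.996. The lowest ratio was that of the paralog Rpl22l1, with 62 UMIs in P4 and 127 in E16, a ratio of 0.406 (0.295 to 0.554). Rpl35a, mutated in some patients with Diamond-Blackfan anaemia, had 306 UMIs in P4 and 626 in E16, a ratio of 0.407 (0.353 to 0.467). Rps21 stood at 0.413, Rpl39, which lines the exit tunnel of the large subunit, at 0.415 and Rpl27a at 0.467.

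Set against ribosomal protein UMIs in place of class UMIs, 2 members passed 1.5-fold upward in P4, Rpl6 and Rpl15 (20.4% of all features), and 15 passed it downward (27.5% of all features). Rpl22l1, Rpl27, Rpl27a, Rpl35a and Rps26 were among the members below the 1.5-fold limit in each of the 6 scalings, weightings and sets of cells tried. The share of all features below the limit in all 6 was not counted, so these members are not set apart from other features. Rpl27 and Rps26 are named here after their values were seen. Within clusters holding both stages, Rpl6 took 0.921% of ribosomal protein UMIs in P4 and 0.845% in E16 in cluster 1, and 1.65% in P4 and 1.08% in E16 in cluster 5. Rpl35a took 0.398% in P4 and 0.546% in E16 in cluster 1, and 0.199% in P4 and 0.335% in E16 in cluster 5. Rpl35a was thus lower in P4 in both clusters, while Rpl6 differed more in cluster 5, where E16 has 8 cells, than in cluster 1. In the clusters of a single stage, Rpl6 took 1.46% in cluster 10 (P4) and 0.831% in cluster 9 (E16). Rpl35a took 0.320% in cluster 10 and 0.449% in cluster 9.

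Mesenchyme-like cells showed smaller differences. No member of the 81 tested was at least 1.5-fold higher in P4 (13.6% of all features), and 3 passed the limit downward (28% of all features): Rpl27a, Rpl35a and Rpl39l. The median log2 ratio was -0.08 for members and -0.19 for all features, and the summed level in P4 was 0.964 times that in E16 (0.955 to 0.973). Rpl6 again had the highest ratio, with 1144 UMIs in P4 and 678 in E16, a ratio of 1.36 (1.23 to 1.49). Rpl21 stood at 1.25, the X-linked Rps4x at 1.23, Rpl4 at 1.21, the stalk gene Rplp1 at 1.18 and Rps23, a protein of the decoding centre, at 1.18. The lowest after Rpl39l were Rpl35a with 297 UMIs in P4 and 402 in E16 (ratio 0.594, 0.510 to 0.692), Rpl27a with 203 in P4 and 270 in E16 (0.605, 0.502 to 0.728), the paralog Rpl7l1 (0.692), Rps21 (0.699) and Rpl7a (0.720).

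**Figure D3:**
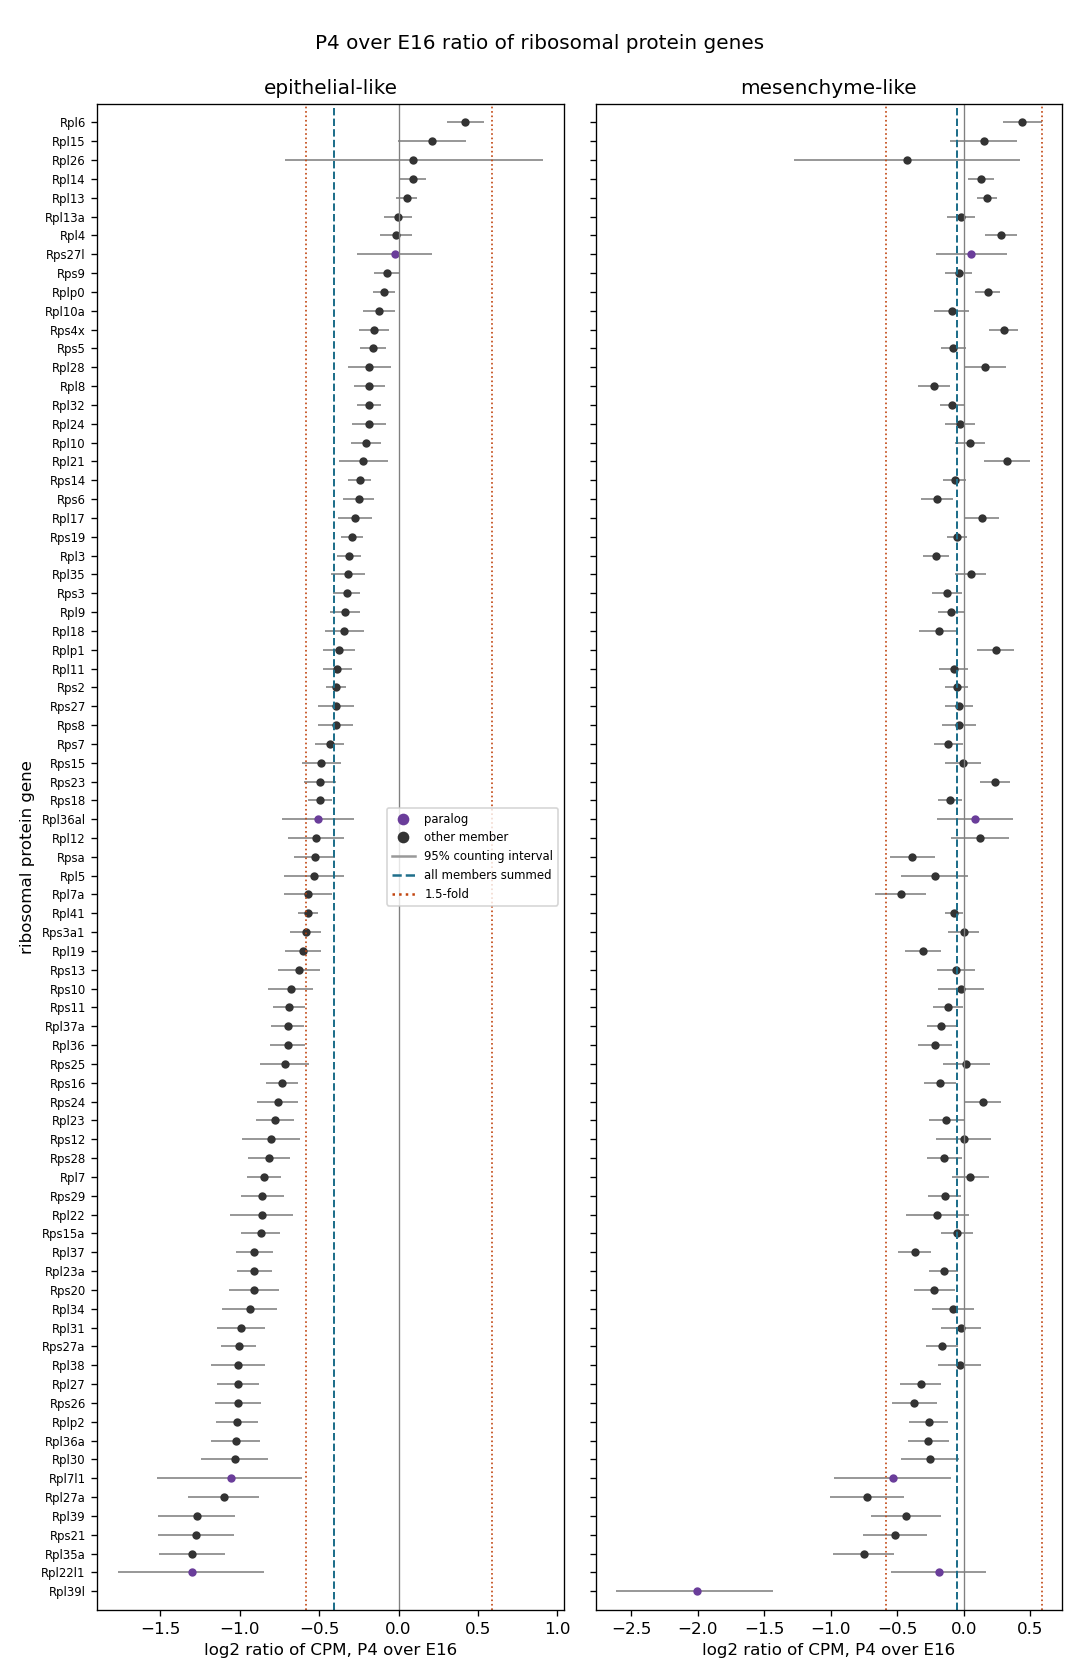
P4 over E16 log2 ratio of CPM for the members with at least 30 UMIs that are reported here, in epithelial-like (left) and mesenchyme-like cells (right), whose x axes differ in range. Points are ratios, bars 95% counting intervals, the dashed line is the summed level and dotted lines mark 1.5-fold: Rpl6 is at the top in both panels, and Rpl39l stands apart in mesenchyme-like cells.

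Epithelial-like cells had more ribosomal protein transcripts per UMI than mesenchyme-like cells in both libraries, 1.27 times in P4 (1.26 to 1.28) and 1.62 times in E16 (1.60 to 1.63). The P4 sums, also used for the counts below, include the 6 Dcpp-rich cells with 27.3% of epithelial-like UMIs. By the median cell the stages were closer. Epithelial-like cells stood at 22.4% and mesenchyme-like cells at 12.90% in P4, and at 23.0% and 12.97% in E16. In P4, 16 of 81 members were at least 1.5-fold higher in epithelial-like cells (18.9% of all features), and Rpl22l1, Rpl34 (named after its values were seen) and Rpl39l were at least 1.5-fold lower (41.5% of all features). In E16, 55 of 81 were higher (24.9% of all features) and Rpl39l alone was lower (30.8% of all features). The median member had a log2 ratio of 0.26 in P4, against -0.36 for all features, and of 0.71 in E16, against -0.07 for all features.

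Across the 5 P4 classes with at least 20 cells, the composition of the ribosomal protein pool was similar. For the 35 members with at least 100 UMIs in each class, the highest class share of ribosomal protein UMIs was a median of 1.47 times the lowest. Rps13 had the widest spread, 1.33% in T or innate lymphoid-like cells and 0.764% in epithelial-like cells. Rps27 had 1.94% in endothelial-like and 1.14% in epithelial-like cells, and Rpl41 4.84% in mesenchyme-like and 2.84% in T or innate lymphoid-like cells. Rps23 had 2.20% in T or innate lymphoid-like and 1.34% in epithelial-like cells.

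Rpl39l had the most class-restricted counts of the paralogs. The gene lies at chr16:10170226-10174911 on the plus strand, and Rpl39 at chrX:37082520-37085402 on the minus strand. In mesenchyme-like cells Rpl39l had 34 UMIs in P4, in 30 of 177 cells, and 110 in E16, in 36 of 99 cells. In epithelial-like cells it had 1 UMI in P4 (98 cells) and 1 in E16 (86 cells), beside 225 UMIs of Rpl39 in P4 and 451 in E16. All cells outside the mesenchyme-like class together held 6 Rpl39l UMIs in P4 and 3 in E16. Of those in P4, 3 came from 1 mural-like cell and 2 from 1 macrophage-like cell of cluster 13. The level in mesenchyme-like cells was 41.9 CPM in P4 and 168 CPM in E16, a ratio of 0.249 (0.164 to 0.368).

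A single E16 cell of cluster 2 carried 49 of the 110 UMIs, and the next highest cell 6. Without it, 61 UMIs remained in E16 and the ratio was 0.444 (0.283 to 0.686). Rpl39l made up 12.4% of the Rpl39l and Rpl39 UMIs in P4 (8.72 to 16.8%), against 29.57% in E16 (24.98 to 34.49%), or 18.9% in E16 (14.8 to 23.7%) without that cell. Thinned to 2269 UMIs per cell, with 18 P4 and 3 E16 mesenchyme-like cells and 36 P4 and 24 E16 epithelial-like cells too shallow and left out, Rpl39l was expected in 7.43% of mesenchyme-like cells in P4 and 20.3% in E16, and in 1.19% of epithelial-like cells in P4 and 0.419% in E16. Unthinned, 16.9% of mesenchyme-like cells had a UMI in P4 and 36.4% in E16, at median depths of 4396 UMIs in P4 and 6125 in E16. Among the clusters with at least 5 cells of a stage, the level was highest in E16 cells of cluster 2, with 90 UMIs, 248 CPM and 36.3% of the pair. Without the richest cell, cluster 2 had 41 UMIs, 115 CPM (82.5 to 156) and 20.7% of the pair (15.3 to 27.0%), near the 98.8 CPM (39.7 to 204) of E16 cells of cluster 0. In cluster 0 the pair share was close between stages, at 15.6% in P4 and 16.3% in E16. So it was in cluster 7, at 15.4% in P4 and 17.1% in E16. The Rpl39l level was still lower in P4, at 42.9 CPM (22.2 to 74.9) against 98.8 in cluster 0. In cluster 7 it was 48.1 CPM in P4 (13.1 to 123) and 66.7 in E16 (35.5 to 114). Rpl39 was lower in P4 as well, at 232 CPM against 508 in cluster 0 and 264 against 323 in cluster 7. Cluster 2 had 11.8% of the pair in P4, from 2 UMIs in 6 cells (1.46 to 36.4%), below its E16 shares given above. None of the 50-base windows at the Rpl39l transcript's end occurred in another gene, but 21.1% of those of Rpl39 did, in 6 genes.

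**Figure D4:**
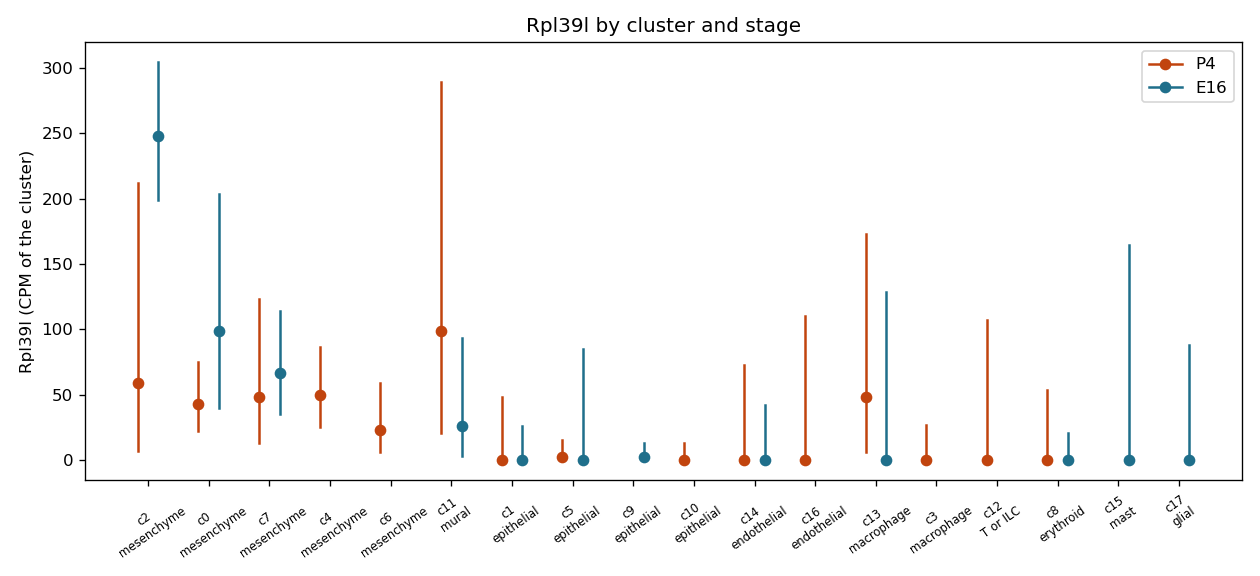
Rpl39l level (y axis, CPM, per UMIs of the cluster) in each cluster with at least 5 cells of a stage, P4 left of E16, with 95% counting intervals. Mesenchyme-like clusters have values above 20, with E16 cluster 2 at 248, and the epithelial-like clusters are at or near 0. The P4 mural-like cluster 11, at 99.0, rests on 3 UMIs and the P4 macrophage-like cluster 13, at 47.9, on 2.

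Rpl22l1, at chr3:28805436-28807424, is the paralog of Rpl22, and in counts summed by class the pair divided by class more than by stage. It made up 30.15% of the pair in P4 mesenchyme-like cells (145 UMIs) and 30.02% in E16 ones (133 UMIs). In epithelial-like cells it made up 14.5% in P4 (11.3 to 18.2%) and 18.7% in E16 (15.8 to 21.8%), intervals that overlap. With cells weighted equally the order turned, at 16.7% in P4 and 15.9% in E16. The clusters of a class differed: P4 mesenchyme-like cells had 14.8% in cluster 7, 26.5% in cluster 0, 35.6% in cluster 6 and 37.1% in cluster 4. P4 epithelial-like cells had 10.6% in cluster 1, 12.8% in cluster 5 and 22.5% in cluster 10. Both genes of the pair had fewer UMIs in P4 epithelial-like cells, Rpl22 with 366 in P4 and 553 in E16. The last 300 bases of Rpl22l1 share 63.3% of windows with other genes.

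Rps27l, at chr9:66946086-66949516, is a target of p53 in human cells. It made up 19.9% of the Rps27l and Rps27 UMIs in P4 epithelial-like cells (18.0 to 21.8%) and 16.1% in E16 ones (14.4 to 17.9%). By cluster it made up 36.9% in cluster 10 (P4 alone), 14.8% in cluster 9 (E16 alone), 20.2% in P4 and 21.6% in E16 in cluster 1, and 14.1% in P4 and 9.79% in E16 in cluster 5. Without the clusters of a single stage the order turned, with 15.5% in P4 and 18.8% in E16. Every window of Rps27 also occurs in other genes, so its level is uncertain. In T or innate lymphoid-like cells Rps27l had 4 UMIs beside 158 of Rps27, a share of 2.47% (0.677 to 6.20%). That interval lies below those of the epithelial-like, mesenchyme-like and macrophage-like cells of P4.

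Rpl36al, at chr12:69182731-69184083, made up 34.4% of its pair with the X-linked Rpl36a in P4 epithelial-like cells (31.3 to 37.6%) and 26.8% in E16 ones (24.5 to 29.2%). By cluster it made up 44.3% in cluster 10 (P4 alone), 26.9% in cluster 9 (E16 alone), 26.8% in P4 and 26.7% in E16 in cluster 1, and 32.3% in P4 and 26.7% in E16 in cluster 5. Without the clusters of a single stage it was 31.0% in P4 and 26.7% in E16, with intervals that overlap. In mesenchyme-like cells it made up 24.7% in P4 and 20.5% in E16. Rpl36al shares 70.1% and Rpl36a 100% of their windows with other genes, so the pair is uncertain. Rpl7l1, at chr17:46773907-46782672, made up 4.70% of its pair with Rpl7 in P4 and 5.41% in E16 in epithelial-like cells, and 7.38% in P4 and 10.7% in E16 in mesenchyme-like cells. Rpl7l1 shares 2.39% and Rpl7 74.1% of their windows with other genes, so this pair is uncertain too. Rpl3l had 2 UMIs in P4 and 1 in E16 beside the abundant Rpl3, and Rpl10l had 0 in both libraries.

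**Figure D5:**
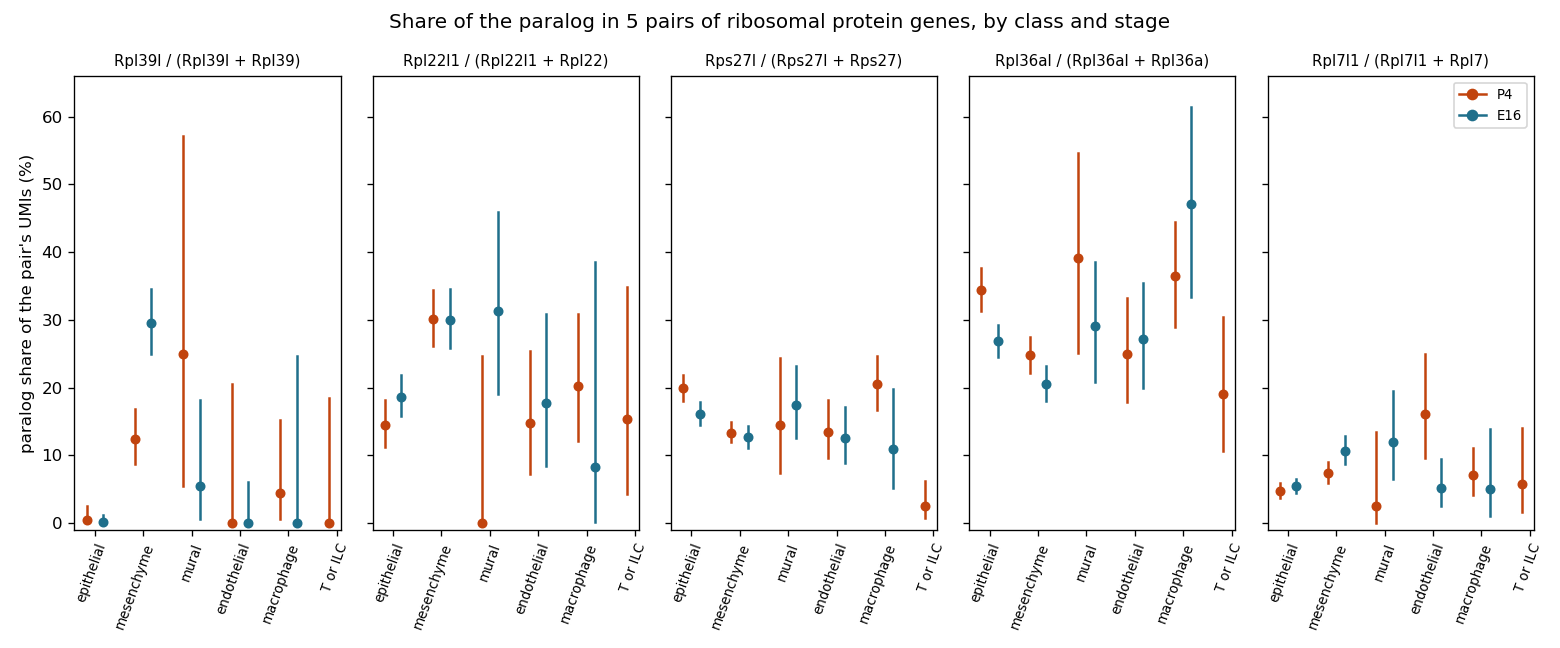
Share of each paralog among the UMIs of its pair (y axis, percent) by class, P4 left of E16, with 95% counting intervals; groups with under 10 UMIs of a pair are left out, and T or ILC stands for T or innate lymphoid-like cells. Rpl39l is near 0 in epithelial-like cells and at 12.4% in P4 and 29.6% in E16 mesenchyme-like cells, whereas Rps27l is lowest in T or innate lymphoid-like cells.

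Genes that build ribosomes in the nucleolus had lower levels in P4 than in E16 in epithelial-like cells. Of 37 listed ribosome biogenesis genes, 33 were tested in epithelial-like cells, 26 had P4 levels lower by 1.5-fold or more and 0 had higher ones, beside the 47.2% and 12% of all features given above. Their median log2 ratio was -1.11, beside -0.52 for the ribosomal protein genes and -0.53 for all features, and their summed level was 3953 CPM in P4 and 8770 CPM in E16. Npm1, a nucleolar chaperone, had 774 UMIs in P4 and 1596 in E16, a ratio of 0.403 (0.370 to 0.440). Ncl, nucleolin, had 208 in P4 and 655 in E16, a ratio of 0.264 (0.225 to 0.309), the lowest of the list among genes with at least 100 UMIs. Nop10 stood at 0.514, Polr1d, a subunit of RNA polymerases I and III, at 0.705, and Lyar had the highest ratio, 0.735. In mesenchyme-like cells 11 of 33 were lower in P4 and 2 higher, beside 28% lower and 13.6% higher among all features, so the share of lower genes was near the background. The median log2 ratio there was -0.41, beside -0.19 for all features, and Ncl again had the lowest ratio, 0.451.

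Other mRNAs known for a terminal pyrimidine tract, many of them translation factors, were spread over a wide range of ratios. Of 17 tested in epithelial-like cells, 1 was at least 1.5-fold higher in P4 and 7 lower, beside 12% of all features higher and 47.2% lower, with a median log2 ratio of -0.30. In mesenchyme-like cells 1 was higher and 2 lower, beside 13.6% of all features higher and 28% lower, with a median of -0.24. Eef1a1, the elongation factor that delivers tRNA, had 2263 UMIs in P4 and 1881 in E16 epithelial-like cells, a ratio of 1.001 (0.941 to 1.064). Naca stood at 0.888, Eef1g at 0.670 and Pabpc1, the poly(A)-binding protein, at 0.570. Eif3f had the highest ratio in both classes, 1.52 in epithelial-like and 1.75 in mesenchyme-like cells, and Hnrnpa1 the lowest, 0.205 in epithelial-like and 0.387 in mesenchyme-like cells.

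Fau, whose product carries a ubiquitin-like part fused to a ribosomal protein, was within 1.5-fold in both classes, with a ratio of 0.847 in epithelial-like cells. Among regulators of translation, Eif4ebp1, which restrains cap-dependent translation downstream of mTOR, had 162 UMIs in P4 and 55 in E16 epithelial-like cells, a ratio of 2.45 (1.79 to 3.39), and a ratio of 1.64 (1.31 to 2.05) in mesenchyme-like cells. Of the 6 regulators tested in epithelial-like cells, Eif4ebp1 was the only 1 higher in P4 and 4 were lower, beside 12% and 47.2% of all features. Of the 5 in mesenchyme-like cells, 2 were higher, Eif4ebp1 among them, and 1 lower, beside 13.6% and 28% of all features. Activity of mTOR signalling was not tested. Mitochondrial ribosomal proteins, encoded by a separate set of nuclear genes, had 29 of 72 genes lower and 0 higher in P4 epithelial-like cells, beside 47.2% and 12% of all features, with a median log2 ratio of -0.48 beside -0.53. In mesenchyme-like cells 13 of 71 were lower and 3 higher, beside 28% and 13.6% of all features, with a median of -0.09 beside -0.19.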

How the data were processed

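Droplet single-cell libraries of P4 and E16 lacrimal glands (1 each) were deposited as UMI counts per gene and barcode, all whole and not normalized. The authors used Cell Ranger and the mm10 build, per the submitters' processing notes; no source used here states its version, the annotation or how barcodes were chosen. The labels name both 10x (title) and Drop-seq (protocol). Members, lists and tests were chosen with earlier results of these data known.

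Barcodes needed at least 200 genes and no more than 10% mitochondrial UMIs; the 13 mitochondrial features had 0 UMIs, so the second limit removed none. No doublet caller was run and doublets were not removed. Cells were scaled to 10000, log-transformed and clustered with scanpy 1.11.5 (2000 variable genes without members, clipped at 10, 20 components, 15 neighbours, Leiden resolution 1). Each cluster was given the class whose markers had the highest mean z-score, and stayed unnamed with under 3 detected markers. UMIs were summed per library and class. Shares have exact Clopper-Pearson intervals and ratios exact conditional binomial ones, for features with at least 30 UMIs over the groups compared; a feature counted at 1.5-fold. The ratio step was tested on simulated counts. UMI levels were not divided by length. Genes named are all paralogs, the 6 members highest and lowest in UMIs and in each stage ratio (at least 100 UMIs), the 5 with the widest spread over P4 classes, and in other lists the 4 with most UMIs and the extremes. A few genes that this rule names are not reported here. Coordinates are from GENCODE M21 (GRCm38), matched by gene ID for 84 of 84 members.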

Additional observations from a re-analysis of the deposited data

Results flagged for a closer look

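Barcodes left out for too few genes were not used in any comparison, and they also held ribosomal protein UMIs. In P4, 281 such barcodes gave 0.323% of their UMIs to the members (0.310 to 0.336%), and in E16, 178 gave 0.470% (0.451 to 0.488%). Haemoglobin transcripts made up 95.4% of the UMIs of these barcodes in P4 and 95.7% in E16. In the erythroid-like cells the members' share was 0.840% in P4 and 0.598% in E16, above that of the left-out barcodes in both libraries and with the stages in the opposite order. Because the limit on detected genes separated these groups, the higher share in the kept cells is not independent of that limit.

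Ribosomal protein pseudogenes with -ps symbols, 17 features outside the member list, also had UMIs. They summed to 94 UMIs in P4 and 75 in E16, with 10 features detected in each library, which is 0.0338% of the members' UMIs in P4 and 0.0285% in E16.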

How the results depend on the processing

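No paired analysis was possible because each stage has 1 library. As P4 minus E16 in percentage points, the share in all cells was -1.30, and -0.45 without 33 abundant other genes, -0.43 with cells weighted equally, -2.57 with at least 500 genes per cell and -0.71 without the deepest cell of each class. The epithelial-like difference was -5.36, 0.161 without abundant genes, -1.65 with equal weights, -5.52 with at least 500 genes, -4.06 without the deepest cell, -2.41 with the libraries clustered alone and -0.574 without clusters of a single stage, an alternative chosen after seeing the data. The mesenchyme-like difference was -0.489, and -0.0138 without abundant genes, -0.243 without the deepest cell, -1.09 at resolution 0.5, -1.14 clustered alone and -0.284 with members kept in clustering. The count of epithelial-like members past 1.5-fold was 36, all lower in P4. It was 16 without abundant genes (2 higher, 14 lower), 9 with equal weights and 14 at 2-fold (all lower), and 17 per ribosomal protein UMI (2 higher, 15 lower). Of all features, 47.2% were lower per class total and 27.5% per ribosomal protein UMI. That share was not counted under the other alternatives in either class, so these counts do not set members apart from other features. In mesenchyme-like cells 3 became 5 at resolution 0.5 and with libraries clustered alone, and 1 at 2-fold. The paralog pairs compared between stages were those of Rpl22l1, Rps27l, Rpl7l1 and Rpl36al, and in mesenchyme-like cells also that of Rpl39l. Their intervals cover counting error in 1 library per stage. How often such intervals separate for other features was not counted, so the pair counts that follow do not set paralogs apart. Paralog pairs with separate intervals numbered 2 of the epithelial-like pairs, and 1 with at least 500 genes, without the deepest cell, clustered alone or with members kept in clustering, and 0 without clusters of a single stage, where the Rps27l difference turned to -3.28. In mesenchyme-like cells 1 pair became 2 without the deepest cell and with members kept in clustering. The Rpl39l pair difference there stayed between -19.8 and -16.5 in all 8 alternatives, none of which left out the E16 cell richest in Rpl39l; without that cell the pair shares were 12.4% in P4 and 18.9% in E16. Classes under 20 cells, and paralogs of under 10 UMIs, are limited by depth.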
